A study of Homo sapiens with 8 samples.

Results

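HEK293T cells, an established human embryonic kidney line, expressed 187 antisense long noncoding RNAs at a level of 1 or more on the scale used. These are the gene symbols ending in -AS1, -AS2 or -AS3 whose summed FPKM (the number of fragments on a transcript divided by its length and the library's mapped fragments) was at least 1 in both libraries of unenriched RNA, out of 1125 such symbols in a table of 26883 symbols and unmatched rows. EPB41L4A-AS1 and OIP5-AS1 were left out by the rule. The members were thus chosen by their level in the unenriched RNA, and every comparison with that RNA below is a description and carries no test.

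RNA of 8 libraries was measured in a study that asked whether human RNA carries a NAD cap and whether the protein DXO removes it. Wild-type (WT) RNA gave the 2 unenriched libraries, depleted of ribosomal RNA with RiboMinus, and 3 further libraries after NAD-Capture; the last 3 are NAD-Capture libraries of HEK293T cells carrying the label DXO-KO, a knockout of DXO. NAD-Capture lets the enzyme ADP-ribosylcyclase place a clickable group on NAD at the end of an RNA, which is then joined to biotin and bound by beads. No cells were treated, and the labels give neither how the knockout was made nor whether it is 1 clone. They also do not say that replicates were separate cultures, so p-values measure only the spread between these libraries. RiboMinus libraries came from a TruSeq kit and NAD-Capture libraries from a SMARTer low-input kit, so capture and kit cannot be told apart between them. The reaction without the cyclase is not analysed here.

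An antisense RNA is read from the strand opposite a neighbouring gene, and is named for that gene. Some overlap the neighbour and can pair with its transcript, and others start beside its promoter and run away from it. The NAD cap arises when RNA polymerase starts a transcript with NAD in place of ATP, which requires A as the first base, or is added later, and DXO is an enzyme that takes the whole NAD off.

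The RefSeq promoter table (GRCh38.p14) held an entry, and so an annotated first base, for 146 of the 187 members. Whether that base bears on the capture of a member was not tested. The 50-base windows below run 5′ to 3′ on the strand of the antisense RNA, with the annotated first base in capitals. FGD5-AS1 and THAP9-AS1 are among the most abundant members, CCDC183-AS1, LENG8-AS1, THAP7-AS1 and SRRM2-AS1 stood highest in NAD-Capture relative to RiboMinus, EIF1AX-AS1 and PSMD6-AS2 were listed at 0 in all WT NAD-Capture libraries, and PRKAG2-AS1 and ZSWIM8-AS1 stood apart between the NAD-Capture groups.
FGD5-AS1, chr3:14948422-14948471, minus strand: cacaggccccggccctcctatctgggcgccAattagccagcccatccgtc
THAP9-AS1, chr4:82900897-82900946, minus strand: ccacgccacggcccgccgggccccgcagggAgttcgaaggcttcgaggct
CCDC183-AS1, chr9:136808829-136808878, minus strand: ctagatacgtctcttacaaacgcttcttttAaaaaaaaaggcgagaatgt
LENG8-AS1, chr19:54449019-54449068, minus strand: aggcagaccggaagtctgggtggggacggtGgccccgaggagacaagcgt
THAP7-AS1, chr22:21001892-21001941, plus strand: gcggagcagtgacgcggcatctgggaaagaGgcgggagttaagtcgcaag
SRRM2-AS1, chr16:2752581-2752630, minus strand: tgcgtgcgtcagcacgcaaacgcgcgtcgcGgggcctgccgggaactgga
EIF1AX-AS1, chrX:20139938-20139987, plus strand: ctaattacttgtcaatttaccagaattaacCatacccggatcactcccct
PSMD6-AS2, chr3:64003992-64004041, plus strand: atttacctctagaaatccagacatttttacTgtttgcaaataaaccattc
PRKAG2-AS1, chr7:151877012-151877061, plus strand: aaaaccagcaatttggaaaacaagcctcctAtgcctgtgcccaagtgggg
ZSWIM8-AS1, chr10:73801380-73801429, minus strand: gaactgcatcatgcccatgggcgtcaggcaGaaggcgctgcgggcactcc

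The annotated first base was A in 41 of the 146 members (28.1%), G in 61 (41.8%), C in 24 (16.4%) and T in 20 (13.7%). Over all 27305 promoters in the table, A came first in 44.3% and T in 7.59%. Among the 9530 promoters of symbols at 1 FPKM or more in both RiboMinus libraries the share of A was 44.4% and of T 1.32%, and these shares were not tested against those of the members. A pyrimidine followed by a purine at the start, the usual initiator pair, stood in 48.6% of members and 75.9% of expressed symbols. No start was measured in these data.

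The members' promoters had a median GC content of 63.3% and a median of 23 CG dinucleotides in 300 bases, between all promoters (58.3% and 14) and those of expressed symbols (65.7% and 27). CCAAT stood on either strand in 39.7% of the members, 35.7% of all promoters and 38.1% of those of expressed symbols. GGGCGG stood in 52.7, 44.6 and 71.8% of these sets, CCGGAAG in 13.7, 10.7 and 20.6%, and TATAAA in 5.48, 12.0 and 5.17%. None of these 4 motifs contains another. A match of these letters is a description of the window and not a binding site.

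In 45 members an annotated start on the opposite strand lay within the 250 bases before the member's own start, so that both RNAs start within a common stretch and run apart. The stretches below, from RefSeq GRCh38.p14, run 5′ to 3′ on the strand of the antisense RNA. The first capital is the complement of the neighbour's first base, and the last capital is the first base of the antisense RNA. They are shown because LENG8-AS1 and SRRM2-AS1 were among the highest in NAD-Capture relative to RiboMinus, and because SCAMP1-AS1 and MNX1-AS1 stood on opposite sides of WT under the DXO-KO label.
SRRM2-AS1 with SRRM2, chr16:2752585-2752653, minus strand: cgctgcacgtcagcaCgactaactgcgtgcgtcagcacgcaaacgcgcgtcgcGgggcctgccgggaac
SCAMP1-AS1 with SCAMP1, chr5:78360526-78360632, minus strand: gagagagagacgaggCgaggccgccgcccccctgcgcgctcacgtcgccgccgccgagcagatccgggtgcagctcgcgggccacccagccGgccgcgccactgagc
LENG8-AS1 with LENG8, chr19:54449023-54449214, minus strand: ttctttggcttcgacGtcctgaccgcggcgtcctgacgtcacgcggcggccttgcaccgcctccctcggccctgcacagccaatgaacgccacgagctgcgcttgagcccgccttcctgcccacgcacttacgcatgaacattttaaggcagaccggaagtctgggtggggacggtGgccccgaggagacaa
MNX1-AS1 with MNX1, chr7:157010648-157010872, plus strand: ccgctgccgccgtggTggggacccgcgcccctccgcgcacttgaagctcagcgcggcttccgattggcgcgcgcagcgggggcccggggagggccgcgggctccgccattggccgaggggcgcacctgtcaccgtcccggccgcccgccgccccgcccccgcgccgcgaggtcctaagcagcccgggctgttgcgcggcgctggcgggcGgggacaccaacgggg
The distance between the paired starts was 38 bases at SRRM2, 76 at SCAMP1, 161 at LENG8 and 194 at MNX1. In the GENCODE v29 models used for positions further on, SRRM2-AS1 and LENG8-AS1 reach over the neighbour's start, and SCAMP1-AS1 and MNX1-AS1 do not.

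The libraries differed widely in depth, which sets how finely a member could be measured. From the smallest steps between FPKM values, the RiboMinus libraries held the equivalent of 10665961 and 8709636 fragments, the WT NAD-Capture libraries 164437 to 247742, and the libraries labelled DXO-KO 805378, 137404 and 80538. Small RNA, such as snoRNA and microRNA, made up 33.9 and 35.2% of the summed FPKM with RiboMinus, 62.1 to 73.5% after NAD-Capture of WT RNA, and 71.5, 92.2 and 87.1% under the DXO-KO label. DXO itself was listed at 11.2 and 14.3 FPKM in RiboMinus, at 33.2, 17.2 and 27.1 in WT NAD-Capture, and under the DXO-KO label 127.6, 61.6 and 71.7. Its RNA was thus higher, not lower, under the knockout label (log2 difference 1.69, limma adjusted p = 0.117), which does not check an edit that leaves the RNA in place, so the group is named by its label throughout.

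Most members were low even in RiboMinus. There were 16 at a mean of 10 FPKM or more, 28 between 5 and 10, 69 between 2 and 5, and 74 between 1 and 2, with a median of 2.51 FPKM against 11.2 FPKM over the 11992 symbols at 1 FPKM or more. The 2 RiboMinus libraries gave like values, with 162 of the 187 members within 1.5-fold of each other and a largest ratio of 2.49. Just inside the level were GRTP1-AS1 (1.31 and 1.01 FPKM), ZEB1-AS1 (1.16 and 1.02) and EPN2-AS1 (1.02 and 1.13), and just outside were PRDX6-AS1 (1.09 and 0.984), TRHDE-AS1 (1.08 and 0.982) and TENM3-AS1 (1.07 and 0.977).

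FGD5-AS1, which runs antisense to the gene of a CDC42 exchange factor, was the most abundant at 38.6 and 35.4 FPKM in RiboMinus. It was listed at 14.5, 40.8 and 24.9 FPKM in WT NAD-Capture, and under the DXO-KO label 30.9, 46.8 and 48.4, so the 3 groups overlapped. FGD5 itself stood at 0.12 and 0.10 FPKM in RiboMinus, far below its antisense RNA in both libraries.

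HOXB-AS3, from the HOXB homeobox cluster, stood at 23.0 and 28.2 FPKM in RiboMinus. Its NAD-Capture values were 0, 9.89 and 54.5 FPKM in WT and 11.9, 98.3 and 0 under the DXO-KO label. Each NAD-Capture group thus ran from 0 to well above RiboMinus. Its longest transcript is 539 nt, so a single fragment gives a large FPKM.

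THAP9-AS1, whose neighbour encodes a transposase-derived protein, gave close values within each group. Its RiboMinus values were 19.8 and 19.5 FPKM, its WT NAD-Capture values 28.4, 23.2 and 25.1, and its values under the DXO-KO label 37.7, 53.7 and 36.1. The 3 groups did not overlap, and DXO-KO minus WT NAD-Capture came to 0.69 on the log2 scale (SE 0.31, adjusted p = 0.305 in limma).

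VPS9D1-AS1 stood at 15.0 and 18.4 FPKM in RiboMinus and at 49.7, 42.4 and 55.8 in WT NAD-Capture. Under the DXO-KO label it was listed at 30.6, 27.2 and 8.02 FPKM, below every WT NAD-Capture library. The log2 difference between the NAD-Capture groups was −1.32 ± 0.49 (SE) with an adjusted p of 0.248 in limma. VPS9D1 itself was at 0.75 and 1.01 FPKM in RiboMinus.

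The other abundant members were ATP2A1-AS1 (21.9 and 18.8 FPKM in RiboMinus), antisense to a muscle calcium pump gene that was itself at 0.82 and 0.60, PITPNA-AS1 (16.0 and 18.0), C10orf95-AS1 (18.1 and 14.7), WARS2-AS1 (14.1 and 14.7), MRPL20-AS1 (14.9 and 12.6) and OTUD6B-AS1 (12.9 and 13.6). C10orf95-AS1 ranged in NAD-Capture from 14.2 to 23.0 FPKM in WT and from 11.3 to 16.4 under the DXO-KO label. PITPNA-AS1, at 542 nt, was listed at 26.3, 0 and 10.0 FPKM in WT and at 4.08, 0 and 0 under the DXO-KO label.

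**Figure D1:**
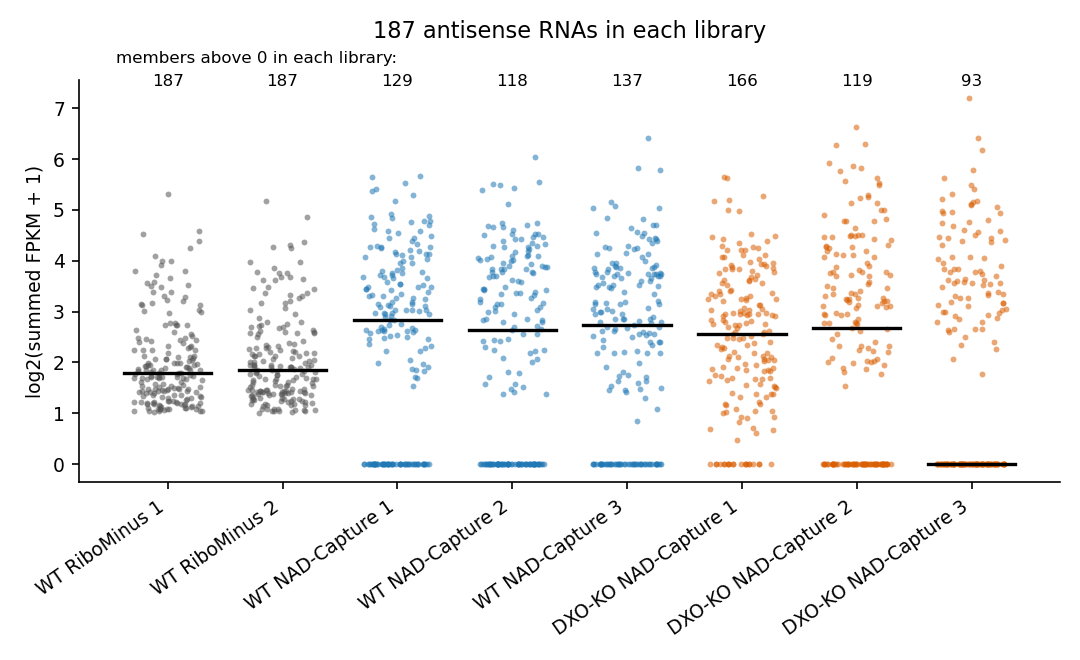
Each point is 1 of 187 antisense RNAs and the vertical axis is log2(summed FPKM + 1) in each of 8 libraries. Black bars are medians and the number over each library counts the members above 0, which goes from 187 in RiboMinus to between 93 and 166 in NAD-Capture.

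Every member was above 0 in RiboMinus by the rule, and fewer were in NAD-Capture. The counts were 129, 118 and 137 in WT NAD-Capture and 166, 119 and 93 under the DXO-KO label, and within each group they followed the depth of the libraries. Of the members, 59 were above 0 in all 6 NAD-Capture libraries and 6 in none of them. The 59 had a median RiboMinus level of 3.65 FPKM and a median length of 2164 nt, and the 6 had 1.88 FPKM and 690 nt. Lengths here are of each member's longest transcript with a known length, and members without one are left out of the median. The 6 are CA3-AS1, HOXD-AS2, IDI2-AS1, MAST4-AS1, MEIS1-AS2 and RUVBL1-AS1, which stood at a mean of 1.38 to 2.66 FPKM in RiboMinus.

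A member on 1 fragment already looks high in a shallow library. One fragment on 1 kb of transcript was worth 4.04 to 6.08 FPKM in WT NAD-Capture and 1.24, 7.28 and 12.4 FPKM under the DXO-KO label, against 0.0938 and 0.115 in RiboMinus. The median of the 147 members with known lengths held an estimated 1.7, 1 and 1.7 fragments in the WT NAD-Capture libraries and 5, 1 and 0.5 in the DXO-KO ones, against 38.8 and 32.2 in RiboMinus. Of the members above 0 in WT NAD-Capture, 86.8, 85.6 and 80.3% stood above both RiboMinus values. In DXO-KO replicate 1, the deepest of the NAD-Capture libraries, that share was 66.9%, and in the shallow replicates 2 and 3 it was 89.1 and 90.3%.

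With that in view, 61 members (32.6%) stood above both RiboMinus libraries in every WT NAD-Capture library. Of the 11992 symbols past the same cut-off of 1 FPKM, 19.8% did. These symbols were more abundant, at a median of 11.2 FPKM in RiboMinus against 2.51 for the members. Another 32 members (17.1%) stood below, where 39.8% of those symbols did, and 26 of the 32 were listed at 0 in all 3 WT libraries. The median log2 difference of the members was 0.34, against −0.39 over the 11992 symbols, on the log2(FPKM + 1) scale, and 0.15 with a pseudocount of 0.1. Of other noncoding classes at 1 FPKM or more, 15 of 47 divergent transcripts (-DT, 31.9%) and 15 of 56 LINC symbols (26.8%) stood above. Their median RiboMinus levels were 2.46 and 2.66 FPKM, and their median log2 differences 0.20 and −0.05. The rule used the RiboMinus values, and nothing particular to antisense RNA is read from these counts.

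Under the DXO-KO label 50 members (26.7%) stood above RiboMinus in every library, where 22.4% of the 11992 symbols did, and 33 (17.6%) stood below, where 27.1% did. Their median log2 difference was 0.12, against −0.14 over all those symbols, and it became −0.48 with a pseudocount of 0.1. It was −0.00055 without DXO-KO replicate 1, 0.07 without replicate 2 and 0.38 without replicate 3, and 0.05 without RiboMinus replicate 1. Both comparisons share the 2 RiboMinus libraries.

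Among those 147, a group of 41 members was long and abundant enough that their RiboMinus level would have given 1 fragment or more in every WT NAD-Capture library. Of these, 17 stood above RiboMinus in all 3 WT libraries and 4 below, with a median log2 difference of 0.45. At 2 fragments or more, 17 members remained, with 6 above and 1 below and a median of 0.26. At 5 fragments or more there were 3, with 1 above and 0 below and a median of −0.57. The share of all symbols past the same fragment levels was not computed, so no excess of the members is read from these counts.

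CCDC183-AS1 had the largest excess in WT NAD-Capture over RiboMinus. It stood at 1.37 and 1.63 FPKM in RiboMinus, at 40.4, 44.2 and 33.0 in WT NAD-Capture and at 18.1, 6.62 and 11.4 under the DXO-KO label. All 6 NAD-Capture values lay above both RiboMinus values, and every DXO-KO value lay below every WT one. The WT values correspond to 17.0, 15.9 and 17.9 fragments, where its RiboMinus level would have given 0.63, 0.54 and 0.81. The log2 difference was 4.00 between WT NAD-Capture and RiboMinus and −1.71 ± 0.41 between the NAD-Capture groups, with an adjusted p of 0.124 in limma. Of its exon sequence 31.2% lies antisense to exons, and by size of overlap AL355987.4 comes before CCDC183. CCDC183, a coiled-coil gene, was listed at 0.31 and 0.45 FPKM in RiboMinus and at 0, 3.94 and 2.83 in WT NAD-Capture.

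LENG8-AS1 stood at 1.58 and 1.11 FPKM in RiboMinus, at 21.5, 24.9 and 27.5 in WT NAD-Capture and at 13.5, 59.4 and 54.4 under the DXO-KO label. Again no NAD-Capture value reached down to RiboMinus, but here both NAD-Capture groups overlapped. The WT values are 2.8, 2.7 and 4.6 fragments. LENG8, which starts from the promoter printed above in the other direction, was at 9.31 and 11.8 FPKM in RiboMinus, against 31.2, 15.6 and 18.4 in WT NAD-Capture.

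THAP7-AS1, antisense to a gene of the THAP zinc-finger family, stood at 2.62 and 3.78 FPKM in RiboMinus, at 49.2, 44.3 and 27.2 in WT NAD-Capture and at 5.67, 26.5 and 35.2 under the DXO-KO label. Its WT values come from 12.5, 7.8 and 9.1 fragments. Of its exon sequence 45.6% lies antisense to exons, and THAP7 was at 63.7, 47.0 and 26.8 FPKM in the same WT libraries, so reads of these partners may be shared.

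SRRM2-AS1 stood at 1.90 and 1.25 FPKM in RiboMinus but at 38.1, 15.2 and 13.4 in WT NAD-Capture, while SRRM2, a splicing factor of nuclear speckles, was lower in WT NAD-Capture (59.4, 65.9 and 55.6 FPKM) than in RiboMinus (79.1 and 100.1).

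GAS5-AS1 had the largest log2 difference in the other direction. It was at 10.5 and 12.6 FPKM in RiboMinus, at 0 in all 3 WT NAD-Capture libraries, and at 6.87, 0 and 0 under the DXO-KO label. Its RiboMinus level would have given 1.10, 0.94 and 1.41 fragments in the WT libraries on average, close to the smallest number that can be seen. GAS5, the host gene of a family of snoRNAs, was at 52.1 and 51.9 FPKM in RiboMinus, against 121.3, 127.3 and 134.9 in WT NAD-Capture.

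EIF1AX-AS1 (4.53 and 3.16 FPKM in RiboMinus), PSMD6-AS2 (3.31 and 3.66) and KANSL1L-AS1 (2.84 and 2.62) were likewise at 0 in all WT NAD-Capture libraries, and PHKA2-AS1 (5.68 and 5.77) was at 0, 0 and 3.58. PSMD6-AS2, at 2456 nt, would have given 1.51, 1.29 and 1.95 fragments there. EIF1AX-AS1 is only 378 nt long, and under the DXO-KO label it was listed at 10.5, 0 and 145.8 FPKM, which the length turns from an estimated 1.5, 0 and 2.1 fragments.

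**Figure D2:**
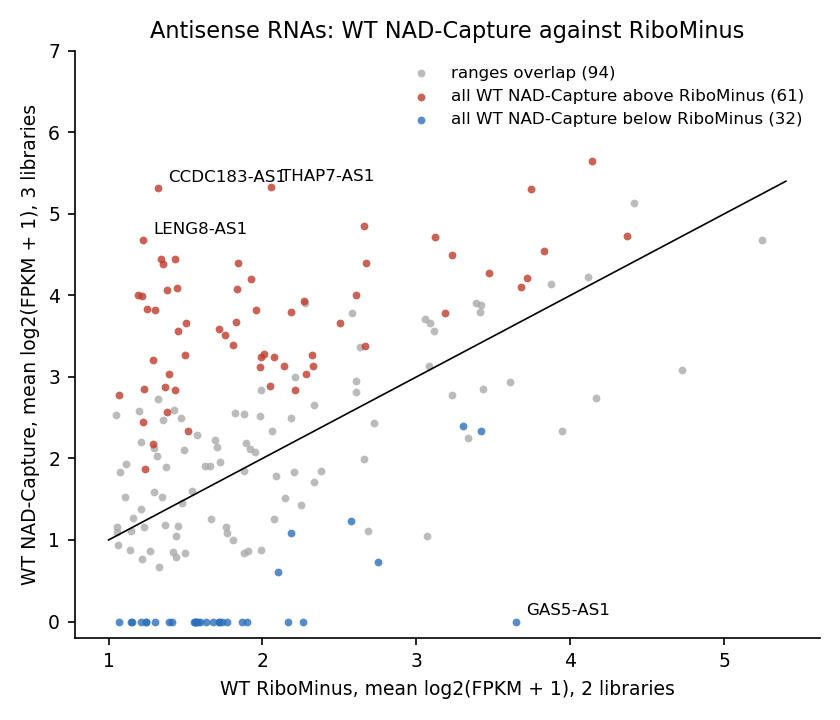
Each point is 1 antisense RNA, with the mean log2(FPKM + 1) of 2 RiboMinus libraries on the horizontal axis and of 3 WT NAD-Capture libraries on the vertical axis; the line marks equal values. The 61 members above RiboMinus in every WT library lie mostly at low RiboMinus levels, and 26 of the 32 below it lie at 0.

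The contrast of DXO-KO and WT NAD-Capture uses no value of the rule and asks whether captured RNA differs under the knockout label. No unenriched library carries that label here, so a change in capture and a change in the amount of an RNA cannot be told apart. Over 18084 symbols with a mean of at least 1 FPKM, limma called 14 (0.0774%) at an adjusted p under 0.05, 7 higher (0.0387%) and 7 lower (0.0387%). That count was 3 to 6 when any WT library or DXO-KO replicate 1 was left out. Of the 187 members 170 could be tested, and none was called. The members with an unadjusted p under 0.05 numbered 24 (14.1%), against 16.5% of all symbols. Of these, 9 were higher under the DXO-KO label (6.9% of all symbols were) and 15 lower (9.55%). The median log2 difference of the members was −0.11, against −0.02 over all symbols. Centring each library on its median moved these to 0.02 and 0.11, so the sign of the members' median was set by the scaling.

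Of the tested members, 8 (4.71%) stood above every WT NAD-Capture library in every library labelled DXO-KO, where 11.6% of all symbols did, and 17 (10.0%) stood below, where 11.5% did. Members with large differences of each kind follow, and none passed the threshold. For USP2-AS1, MNX1-AS1, LY6S-AS1 and STARD7-AS1 the DXO-KO mean was under 1 FPKM, and for ZSWIM8-AS1 the WT mean was. These members passed the filter on mean FPKM only through the other group, so their differences are given as values.

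USP2-AS1 starts beside the promoter of a deubiquitinase gene and does not overlap it. It stood at 1.93 and 1.75 FPKM in RiboMinus, at 10.6, 18.4 and 8.15 in WT NAD-Capture and at 0 in all 3 libraries labelled DXO-KO. The fitted difference on the log2(FPKM + 1) scale, which depends on the pseudocount where a group is at 0, was −3.67. At the WT mean of 12.4 FPKM, the DXO-KO libraries would have held 22.8, 3.9 and 2.3 fragments, and they held none. That mean comes from the group through which it passed the filter, so these numbers describe depth and do not test a loss. USP2 stood at 1.92, 4.47 and 4.46 FPKM in WT NAD-Capture and at 4.63, 0 and 7.03 under the DXO-KO label.

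MNX1-AS1 stood at 4.30 and 3.38 FPKM in RiboMinus, at 25.4, 22.1 and 4.89 in WT NAD-Capture and at 1.50, 0 and 0 under the DXO-KO label. The log2 difference was −3.49. The DXO-KO libraries would have held an estimated 11.8, 2 and 1.2 fragments at its WT mean, the mean of the group through which it passed the filter. Its values of 0 in replicates 2 and 3 thus rest on little depth. Its partner across the shared promoter is MNX1, a homeobox gene of motor neurons and pancreas, which was listed at 5.24, 6.10 and 6.09 FPKM in WT NAD-Capture and at 2.51, 0 and 8.78 under the DXO-KO label. The partner's groups overlapped and those of the antisense RNA did not.

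LY6S-AS1 stood at 1.19 and 1.59 FPKM in RiboMinus, at 9.01, 13.9 and 18.6 in WT NAD-Capture and at 1.34, 0 and 0 under the DXO-KO label. Its log2 difference was −3.43. At the WT mean, the DXO-KO libraries would have held an estimated 14.7, 2.5 and 1.5 fragments, and they held 1.5, 0 and 0. Here too the mean is that of the group through which it passed the filter, and no loss is tested.

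PRKAG2-AS1, named for a regulatory subunit gene of the energy-sensing kinase AMPK, stood at 16.6, 19.2 and 12.7 FPKM in WT NAD-Capture and at 7.81, 0 and 0 under the DXO-KO label, with a log2 difference of −3.04 ± 0.88 and an adjusted p of 0.179 in limma. At 382 nt it is one of the short members, and its values rest on about 1 fragment each. The DXO-KO libraries would have held an estimated 2.3, 0.4 and 0.2 fragments at its WT mean, so its values of 0 there rest on little depth.

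STARD7-AS1 is named because 2 other ways of fitting called it, and was chosen after its values were seen. Those calls carry no weight here. It stood at 1.84 and 1.56 FPKM in RiboMinus and at 7.49, 5.56 and 5.50 in WT NAD-Capture. Under the DXO-KO label it was at 0.61, 0 and 0, with a log2 difference of −2.60.

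ZSWIM8-AS1 showed the opposite pattern. It stood at 1.68 and 2.59 FPKM in RiboMinus, at 0 in all WT NAD-Capture libraries and at 3.12, 12.8 and 8.69 under the DXO-KO label. Its fitted log2 difference, again against a group at 0, was 3.04. The DXO-KO values are 3.2, 2.2 and 0.9 fragments, and at their mean the WT libraries would have held 2.0, 1.7 and 2.6. That mean is again from the group through which it passed the filter. Of its exon sequence 64.6% lies antisense to exons of ZSWIM8, a ubiquitin ligase component, which stood at 3.66, 8.53 and 2.84 FPKM in WT NAD-Capture and at 5.23, 7.33 and 11.0 under the DXO-KO label.

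SLC16A1-AS1 stood at 0, 13.7 and 20.8 FPKM in WT NAD-Capture and at 35.9, 37.0 and 23.2 under the DXO-KO label, with a log2 difference of 2.24 ± 1.03 and an adjusted p of 0.320 in limma. The transporter gene SLC16A1, which brings lactate across the membrane, stood at 62.5 to 81.9 FPKM in WT, and its values under the DXO-KO label, from 57.7 FPKM up, overlapped these. SCAMP1-AS1 was at 7.59, 0 and 5.87 FPKM in WT and at 12.7, 26.4 and 9.23 under the DXO-KO label. Its partner SCAMP1, a secretory vesicle membrane gene on the shared promoter above, was at 8.93, 5.20 and 13.9 in WT and at 17.4, 30.0 and 14.7 under the DXO-KO label. Both transcripts of that promoter thus stood above WT in every library, with log2 differences of 2.01 and 1.10 and adjusted p of 0.298 and 0.30 in limma. At its WT mean, SLC16A1-AS1 would have given an estimated 5, 0.9 and 0.5 fragments in the DXO-KO libraries. For SCAMP1-AS1 these were 4.6, 0.8 and 0.5, so the values of both in DXO-KO replicates 2 and 3 rest on few fragments.

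OTUD6B-AS1, like THAP9-AS1, had every DXO-KO library above every WT one. It stood at 12.9 and 13.6 FPKM in RiboMinus, at 18.4, 33.7 and 18.0 in WT NAD-Capture and at 34.9, 43.8 and 71.2 under the DXO-KO label, from 56.1, 13.9 and 12.0 fragments. The 3 groups did not overlap. The log2 difference between the NAD-Capture groups was 1.06 ± 0.39 with an adjusted p of 0.248 in limma. OTUD6B, a deubiquitinase gene that starts head-to-head with it, stood at 5.06, 15.7 and 15.7 FPKM in WT NAD-Capture and at 8.91, 2.35 and 12.0 under the DXO-KO label. ST20-AS1 was at 2.75, 3.20 and 2.13 FPKM in WT and at 4.60, 7.65 and 8.65 under the DXO-KO label, with a log2 difference of 1.08 ± 0.55 and an adjusted p of 0.353.

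**Figure D3:**
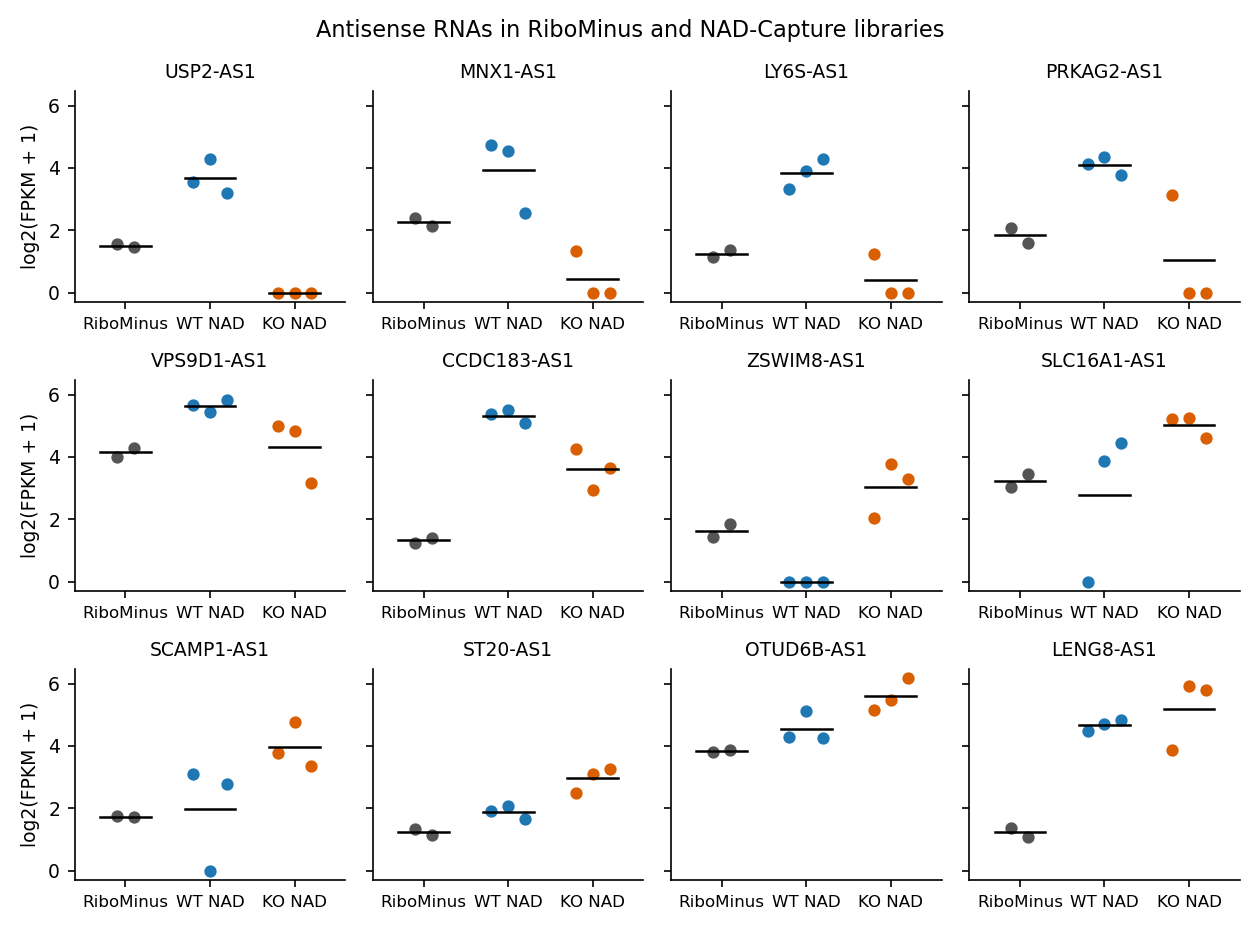
Points are single libraries, on log2(FPKM + 1), for 12 antisense RNAs in RiboMinus (2 libraries) and in WT and DXO-KO NAD-Capture (3 each); bars are group means. USP2-AS1 is at 0 in all 3 DXO-KO libraries and ZSWIM8-AS1 at 0 in all 3 WT NAD-Capture libraries, while the groups of LENG8-AS1 overlap.

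**Figure D4:**
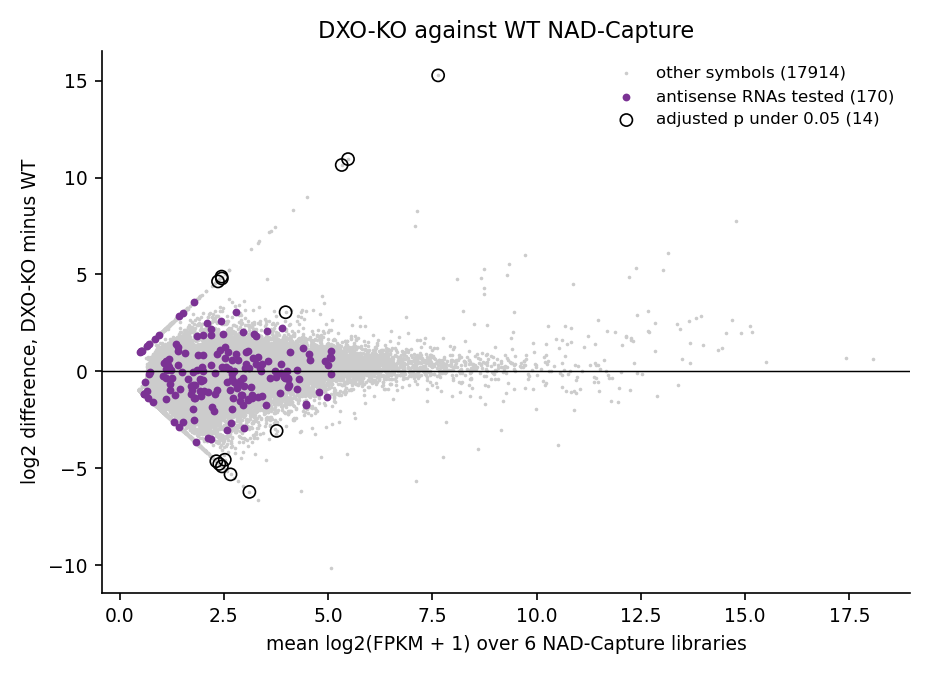
The log2 difference between the NAD-Capture groups is plotted against the mean log2(FPKM + 1) over 6 libraries for 18084 symbols, with the 170 tested antisense RNAs in purple and rings around the 14 symbols called. No ring holds an antisense RNA of the set, and the members lie within the cloud of other low symbols.

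Among antisense symbols outside the set, which were under 1 FPKM in at least 1 of the 2 RiboMinus libraries, 473 were tested. Of these, 2 were called, against 14 of 18084 symbols (0.0774%). Both passed the filter on mean FPKM only through WT NAD-Capture, so their difference is given as values. ZBTB46-AS1 was listed at 22.7, 65.7 and 39.3 FPKM in WT NAD-Capture and PHACTR3-AS1 at 30.2, 34.9 and 23.1, and both were at 0 in every library labelled DXO-KO. ZBTB46-AS1 stood at 0.103 and 0 FPKM in RiboMinus and PHACTR3-AS1 at 0 in both.

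Of all summed FPKM, the 187 members held 0.142 and 0.146% in RiboMinus, then 0.104, 0.0750 and 0.139% in WT NAD-Capture and 0.109, 0.0234 and 0.0249% under the DXO-KO label. The small RNA share moved with it, highest in the 2 libraries with the lowest member share. Without small RNA the members held 0.216 and 0.226% with RiboMinus, then 0.283, 0.283 and 0.367% in WT NAD-Capture and 0.382, 0.300 and 0.192% under the DXO-KO label, where both NAD-Capture groups overlap.

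Models of GENCODE v29 placed 160 of the members. Of these, 74 overlapped the start of a gene on the other strand and 71 overlapped a gene elsewhere. Another 13 were classed as head-to-head, with starts within 1000 bases, and FOXD2-AS1 and LYRM4-AS1 did neither. Overlap was judged only against coding genes and the gene in the name. Of the head-to-head members, RTCA-AS1 had 68.0% of its exon sequence antisense to AL445928.2. ZNF503-AS2 had 11.9% antisense to exons of ZNF503 and AC010997.4. In 152 the neighbour was the gene in the name. In 129 members some exon sequence lay antisense to an exon, in 15 at least 50% of it did, and in 31 none did, with a median of 9.85%. Strand-specific counting is not given in the sources used here, so reads of such stretches cannot be assigned to one partner.

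Members overlapping a start had 28 of 74 above RiboMinus in every WT NAD-Capture library and a median log2 difference of 0.57, those overlapping elsewhere 21 of 71 and 0.29, and the head-to-head members 4 of 13 and 0.13. Members with no exon sequence antisense to an exon had 12 of 31 above and a median of 0.30. Those with some but under 25% had 30 of 81 and 0.52, and members with 25% or more had 13 of 48 and 0.31. The classes were not tested against each other.

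The gene in the name was in the table for 179 members. In RiboMinus it stood at a median of 3.68 times the level of its antisense RNA, and 43 partners were lower than the antisense RNA. FGD5, ATP2A1 and VPS9D1, given above, are the partners of 3 of the 6 most abundant members and were all far below them. Of the partners 165 were tested between the NAD-Capture groups, and limma called none. Of these, 28 had an unadjusted p under 0.05 (17.0%, against 16.5% of all symbols), 23 higher and 5 lower, where 6.9 and 9.55% of all symbols were. The median log2 difference of the 165 was 0.19, against −0.02 over all symbols. Over the 7109 symbols with a mean of at least 10 FPKM in NAD-Capture that median was 0.27. Nothing particular to the partners is read from these values.

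Differences of the antisense RNA and of its partner were weakly related. Across the 179 pairs, Spearman's correlation of the log2 differences was 0.19 between WT NAD-Capture and RiboMinus and 0.15 between the NAD-Capture groups. Over the 13 head-to-head pairs these were 0.70 and 0.43, and over the 69 pairs overlapping at the start 0.16 and 0.27. All pairs share the same libraries, and genes are not independent replicates.

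**Figure D5:**
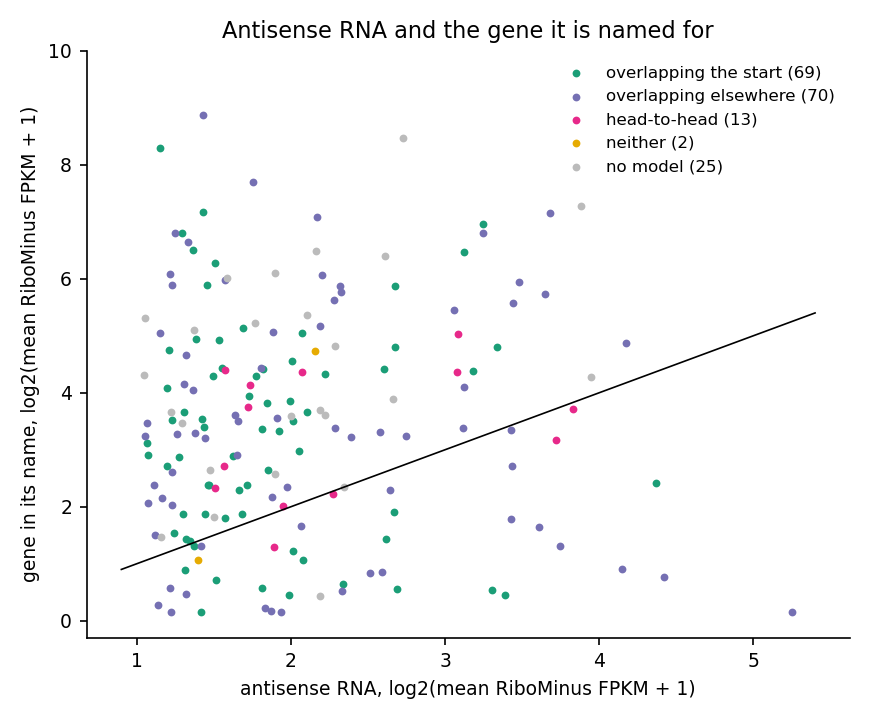
Each point is a pair of an antisense RNA (horizontal axis) and the gene in its name (vertical axis), as log2 of the mean RiboMinus FPKM + 1 over 2 libraries, coloured by how the pair lies in GENCODE v29; the line marks equal levels. Most partners lie above the line, and 43 of 179 lie below it.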

How the data were processed

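The authors deposited FPKM per RefSeq transcript (53216) for 8 HEK293T libraries. TopHat2 2.1.1, Bowtie2 2.2.8.0, Cuffdiff and hg19 are named per the submitters' processing notes. RefSeq IDs were matched to symbols (97.8%) and FPKM summed per symbol. The NAD-Capture groups were compared with limma 3.58.1 (R 4.3.3, trended eBayes, two-sided) on log2(FPKM + 1), over symbols with a mean of at least 1 FPKM, with Benjamini-Hochberg adjustment over all of them; a call is an adjusted p under 0.05. The fit was tested on simulated data. A pseudocount understates the change of low genes. Fragment numbers were estimated from FPKM steps, with lengths less 200 nt from GENCODE v29, for 147 members; 66.7 to 72.8% of low values in each library came within 0.1 of a whole number. Positions relative to neighbours come from GENCODE v29, since the planned RefSeq table held no strand. The members, lists and tests were chosen with earlier results of these data known. Members named are the 10 highest in RiboMinus, the 5 largest non-overlapping differences each way in each comparison, and those next to the level; others are marked in the text, and 1 item that the rule names is not reported here. Alternatives were other pseudocounts, filters, scalings, fits, and leaving out each library.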

Additional observations from a re-analysis of the deposited data

How the results depend on the processing

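The 14 calls over all symbols became 4 with a pseudocount of 0.1, 3 with no filter, 4 with a filter at 10 FPKM, 30 with quantile normalization (10 higher, 20 lower), 443 with all 8 libraries in the fit, 219 without the trend and 8 on single transcripts; the cause was not tested. Median centring gave 19 (11 higher, 8 lower). Leaving out 1 library gave 3 to 17. With the replicate block there were 4 calls and no member; the same-numbered libraries deviated with correlations of −0.0174, −0.00515 and −0.0328, so the numbers did not pair them. Of 170 members, 5 were called with all 8 libraries, against 443 of 18084 symbols. They were LY6S-AS1, MNX1-AS1, STARD7-AS1 and USP2-AS1, lower, and ZSWIM8-AS1, higher. Without the trend 3 were called (LY6S-AS1, STARD7-AS1 and USP2-AS1), against 219 of 18084 symbols. No member was called in the other settings or with any library left out. The fit of all 8 libraries also uses the RiboMinus values of the rule. All these called members passed the filter only through 1 NAD-Capture group, so nothing is read from these calls. The members' median difference ranged from −0.36 without DXO-KO replicate 1 to −0.0017 without DXO-KO replicate 3. Their median over RiboMinus in WT NAD-Capture was 0.15 with a pseudocount of 0.1, an alternative chosen after seeing the data, and 0.34 to 0.40 with 1 library left out. Under the DXO-KO label it ranged from −0.00055 without DXO-KO replicate 1 to 0.38 without DXO-KO replicate 3. Depth limits the short and rare members most: in the shallowest library 130 of the 147 members with lengths would have had under 1 fragment at their RiboMinus level.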
